A study of Mus musculus with 4 samples.

Results

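Smooth muscle and myoepithelial cells contract through bundles of actin and myosin, and much of the evidence that a mammary cell leans towards the myoepithelial state rests on the genes of that apparatus. The genes described here were 10 of them, which are Acta2 (smooth muscle alpha-actin), Tagln (transgelin, an actin-binding protein), Cnn1 and Cnn2 (calponins, which bind actin filaments), Myl9 (a regulatory light chain of smooth muscle and nonmuscle myosin), Tpm1 and Tpm2 (tropomyosins, which lie along the actin filament), Cald1 (caldesmon, which restrains actomyosin), and the intermediate filament proteins Vim (vimentin) and Des (desmin). Every probe that the array design names for these genes was taken, which gave 21 probes of the 41174 non-control probes on the array. Of these, 14 probes for 8 genes were among the 24443 probes kept for testing, meaning that in 1 line or the other both arrays had a signal well above background. Cnn1 and Des had no kept probe.

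The cells were EPH-4, a non-malignant mouse mammary epithelial line that arose by spontaneous immortalization. The line EV-50 carried the empty vector H1-2 and expressed the glucocorticoid receptor (GR, gene Nr3c1) normally, while shGR-19 carried an shRNA vector against GR. Both lines were puromycin-selected clones kept in serum-free DMEM/F-12 medium with 2 µg/mL puromycin and without added glucocorticoid. Each line was 1 clone, so that an effect of GR depletion and a difference between clones cannot be told apart. RNA of each line was put on 2 arrays of the same slide, with 300 ng of RNA labelled for each, and nothing in the labels ties the duplicates to separate cultures, so that p-values measure only the spread between arrays.

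In most tissues the contractile genes answer to serum response factor (SRF), which binds a short element called the CArG box with cofactors of the myocardin family. These cofactors enter the nucleus when free actin monomers are used up, which couples the genes to the state of the cytoskeleton. In the mammary gland the myoepithelial cells around the ducts and alveoli express this set and squeeze milk out, whereas luminal epithelial cells express little of it. Vimentin is usual in mesenchymal cells and in many cultured epithelial lines, and desmin in muscle.

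Upstream sequence from RefSeq (build GRCm38.p6) was held for 9 of the 10 genes, not for Tagln. The 4 stretches shown are those of Myl9 and Vim, which pass the main threshold below, and of Cnn2 and Acta2, which miss it. Each gives the 250 bases before the start of the gene, 5′ to 3′ on the strand of the gene. Capitals mark CArG boxes, which consist of CC, a run of A and T bases and GG, 10 letters in all, with at most 1 letter changed. Myl9 lies on the plus strand (chr2:156775214-156775463), as do Cnn2 (chr10:79988350-79988599) and Vim (chr2:13574061-13574310), and Acta2 lies on the minus strand (chr19:34255374-34255623).
Myl9: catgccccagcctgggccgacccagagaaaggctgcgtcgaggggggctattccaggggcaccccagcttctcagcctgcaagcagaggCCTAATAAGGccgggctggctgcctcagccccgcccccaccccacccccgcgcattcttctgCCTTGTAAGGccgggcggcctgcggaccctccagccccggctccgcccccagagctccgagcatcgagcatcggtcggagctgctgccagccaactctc
Cnn2: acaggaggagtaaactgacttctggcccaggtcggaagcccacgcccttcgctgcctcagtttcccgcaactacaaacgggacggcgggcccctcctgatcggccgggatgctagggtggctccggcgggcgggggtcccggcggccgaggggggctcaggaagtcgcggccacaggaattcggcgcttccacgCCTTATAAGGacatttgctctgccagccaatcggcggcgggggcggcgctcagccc
Acta2: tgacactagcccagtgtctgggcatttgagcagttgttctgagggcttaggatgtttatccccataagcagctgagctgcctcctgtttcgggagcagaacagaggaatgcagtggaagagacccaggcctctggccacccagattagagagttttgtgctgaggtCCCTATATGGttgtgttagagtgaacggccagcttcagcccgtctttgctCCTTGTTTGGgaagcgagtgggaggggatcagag
Vim: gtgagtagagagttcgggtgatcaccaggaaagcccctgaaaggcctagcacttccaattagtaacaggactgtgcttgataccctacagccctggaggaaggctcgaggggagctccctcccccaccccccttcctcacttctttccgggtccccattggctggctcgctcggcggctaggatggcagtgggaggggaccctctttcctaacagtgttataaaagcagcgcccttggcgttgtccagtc

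An unaltered CArG box was found in 2 of the 9 genes. In Myl9 it was CCTAATAAGG, which began 161 bases before the start, and in Cnn2 it was CCTTATAAGG, 56 bases before the start. A box with 1 changed letter and none unaltered was found in 3 further genes (Acta2, Tpm1 and Cald1), and in Acta2 these were CCCTATATGG at 84 and CCTTGTTTGG at 34 bases before the start. The 9 genes had 10 windows, since Cald1 had a second one (chr6:34709194-34709443), which held no such box. No box within 1 change lay in the windows of Vim, Des, Tpm2 and Cnn1. Over all 32851 windows of this length, 1.47% held an unaltered box and 18.6% held a box with at most 1 change. A box reads as a box on either strand, and no other motif was searched. These matches describe letters in a short window and no binding.

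Values came from 2 sources, which did not show the same differences. The scanner files gave the fluorescence of each spot, used here as log2 intensity scaled to each array's 75th percentile. The value table held the authors' log2 values of the same samples, centred on the median of each probe, so that only differences between its columns can be read. Over the 21179 probes above background on every array, the SD of the difference between EV-50 and shGR-19 was 0.23 for the scanner arrays that carry the number 1 and 0.51 for those that carry the number 2. The table's difference between the lines followed the difference of the latter pair of scanner arrays (Pearson's r = 0.91 across probes, which share arrays and are not independent) and hardly that of the former (r = 0.04). The targeted gene showed the same contrast. In the table its 4 probes were 2.67- to 3.83-fold lower in shGR-19 and all were called (limma, adjusted p of 0.00216 to 0.00539), and on the scanner arrays they were lower by 1.47 to 1.95 (log2) between the arrays labelled replicate 2 and by 0.20 to 0.35 between those labelled replicate 1. Results are therefore given from both sources. The sources used here do not settle whether the files or labels of the scanner arrays numbered 1 match their samples, and every scanner mean, SE, overlap and adjusted p given for a line rests on those labels.

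In the table, 2 of the 14 kept probes were called at an adjusted p below 0.01, Myl9 lower in shGR-19 and a probe of Vim higher, and the other 12 differed by -0.40 to 0.40 on the log2 scale. The share called was 14.3%, where 11.6% of all kept probes were called, 6.04% of all probes as lower and 5.53% as higher. Both also differed by more than 2-fold, as 4.26% of all kept probes did (2.39% lower and 1.87% higher). At an adjusted p below 0.05, 6 of the 14 passed, again near the 36.5% of all kept probes. The median difference (shGR-19 minus EV-50) was -0.17 over the 14 probes and 0.01 over all kept probes, with 10 probes lower and 4 higher in shGR-19. The columns of the lines did not overlap in 12 of the 14 probes, near the 71.9% of all kept probes for which that held. In the scanner files 0 of the 14 probes were called by limma, 0 had an unadjusted p below 0.05, and the smallest adjusted p was 1.00. There 0 of the 24443 kept probes were called and 209 (0.855%) had an unadjusted p below 0.05, by limma, and 0 were called by the plain equal-variance test, with 332 below 0.05 unadjusted. The scanner values of the lines did not overlap in 2 of the 14 probes, against 17.9% of all kept probes.

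**Figure D1:**
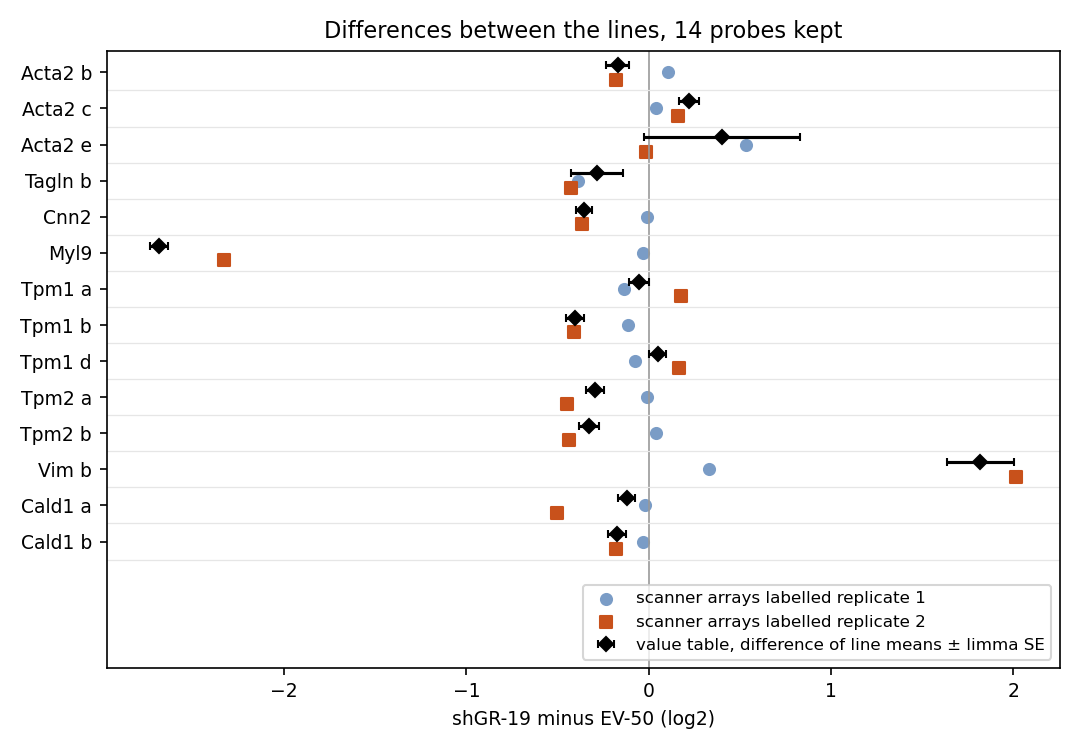
Differences between the lines (log2, shGR-19 minus EV-50) for the 14 kept probes, where letters number the probes of a gene from its 5′ to its 3′ end. Black diamonds give the value table with the limma SE, blue circles the scanner arrays labelled replicate 1 and orange squares those labelled replicate 2. Myl9 and Vim stand apart in the table and between the arrays labelled replicate 2, at -2.68 and 1.82 in the table.

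In the value table the light chain Myl9 was 6.43-fold lower in shGR-19. Its probe (mm9 chr2:156607301-156607360) had the centred values 1.37 and 1.32 in the EV-50 columns and -1.35 and -1.32 in the shGR-19 columns, a mean of 1.35 ± 0.036 (SD, n = 2) against -1.34 ± 0.017. The lines were thus far apart and the columns of a line nearly equal. The difference of -2.68 had an SE of 0.050 and an adjusted p of 0.00173 by limma. On the scanner arrays the level of Myl9 was -2.92 and -1.95 for EV-50 replicates 1 and 2, and -2.95 and -4.28 for shGR-19 replicates 1 and 2. The arrays labelled replicate 1 were alike, while the array labelled shGR-19 replicate 2 was 5.03-fold below that labelled EV-50 replicate 2. The scanner values did not overlap between the lines, but the difference of means, -1.18 with an SE of 0.59, had an adjusted p of 1.00 (limma). The table's call was lost when any of the 4 columns was left out (limma, adjusted p of 0.0269 to 0.0369) and when all 41174 probes were tested (0.0103), a setting in which 43 probes were called in all. It was also lost with replicate number fitted as a block and by the plain equal-variance test after adjustment. Since these are values of a whole culture, fewer cells of a type and less RNA per cell cannot be told apart.

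Of 7 listed markers of the basal or myoepithelial state, 5 had a kept brightest probe and 3 were called in the table, where 11.6% of all kept probes were called. Krt14 and Krt17, keratins of basal cells, were lower in shGR-19 by 1.13 and 0.81, and Mme, a membrane peptidase of myoepithelial cells, was higher by 2.16. The scanner levels of Mme were low, at -5.07 and -4.52 for EV-50 replicates 1 and 2 and -4.80 and -2.45 for shGR-19. It was not above background on EV-50 replicate 1. Mme was thus kept only through shGR-19, the line in which it was higher, and its call adds no support for that direction. The summed scanner level of the list was 5.79 to 7.30 on the EV-50 arrays and 5.81 to 6.15 on the shGR-19 arrays. Krt14 alone lay at 5.70 and 7.25 on the former and at 5.72 and 6.06 on the latter, so the sum is nearly its level. Of the 7 markers 4 lay above background on every array, and Oxtr, the oxytocin receptor that triggers contraction, on none. The part of these markers in the difference of Myl9 was not tested. Of the 9 markers of the labelled cell type, mammary epithelium, 8 (such as Krt8, Krt18 and Cldn3) lay above background on every array, and 0 of these 8 were called. The ninth, Krt19, was not kept and not tested, and its table difference was -2.76, or 6.78-fold lower in shGR-19.

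Vimentin moved the other way. Its probe b, towards the 3′ end (mm9 chr2:13504232-13504291), had the centred table values -0.78 and -1.24 in EV-50 and 0.78 and 0.85 in shGR-19, which is 3.53-fold higher in shGR-19. The difference of 1.82 had an SE of 0.18 and an adjusted p of 0.00947 by limma, just inside the threshold. The EV-50 columns differed from each other by more than the shGR-19 columns did (SD 0.33 against 0.050, n = 2 each). On the scanner arrays the levels were -3.60 and -5.13 for EV-50 replicates 1 and 2, and -3.27 and -3.11 for shGR-19 replicates 1 and 2. The lines did not overlap, and the array labelled EV-50 replicate 2 was the low value, 4.05-fold below its shGR-19 counterpart. That low value, -5.13, was close to -5.89, the lowest level well above background on the same array. The scanner difference of means was 1.17 with an SE of 0.56 (limma, adjusted p of 1.00). With normexp background correction (offset 50) this scanner difference shrank to 0.46. The call in the table was lost when any of the 4 columns was left out (limma, adjusted p of 0.0365 to 0.0594), after quantile normalization (0.0102) and over all probes (0.0308). It was also lost with replicate number fitted as a block and by the plain equal-variance test after adjustment. The other probe of the gene, a (mm9 chr2:13498766-13498825), was well above background on no array and was not tested. Its table difference of -0.32 thus gives no direction to set against that of b.

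Of 9 listed fibroblast markers, 3 had a kept brightest probe and were tested, and these 3 were called as higher in shGR-19 in the table, as 5.53% of all kept probes were, Col1a2 (a chain of type I collagen) by 3.27, and the platelet-derived growth factor receptors Pdgfrb by 2.03 and Pdgfra by 1.16. The table differences of the other 6, untested, ran from -0.59 (Lum) to 5.57 (Col1a1), with 4 below 0. The Pdgfra probe was not above background on the array labelled EV-50 replicate 1. It was thus kept only through shGR-19, the line in which it was higher, and its call adds no support for that direction. The summed scanner level of the 9 ran from 1.02 to 2.71 on the EV-50 arrays and from 0.92 to 5.64 on the shGR-19 arrays. Dcn and Fap, which also mark fibroblasts, lay above background on no array, and 2 of the 9 markers on every array. The part of these markers in the difference of Vim was not tested. Of 4 endothelial markers, Cdh5 and Pecam1 lay above background on no array, Kdr on 2 and Tek on 3. Of 4 leukocyte markers, Ptprc and Itgam lay above background on no array, and Cd3e and Cd68 on every array. Of 7 vascular smooth muscle markers, Kcnmb1 and Rgs5 lay above background on no array, Myh11, Lmod1 and Myocd on 3, and Smtn and Actg2 on every array. None of the kept markers of these 3 lists was called in the table. Of 6 skeletal muscle markers, Acta1 and Tnnt3 lay above background on every array and Myog on none. From that list 4 had a kept brightest probe and 1 was called in the table, where 11.6% of all kept probes were. The called marker was Acta1, lower in shGR-19 by 1.76 and described below.

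**Figure D2:**
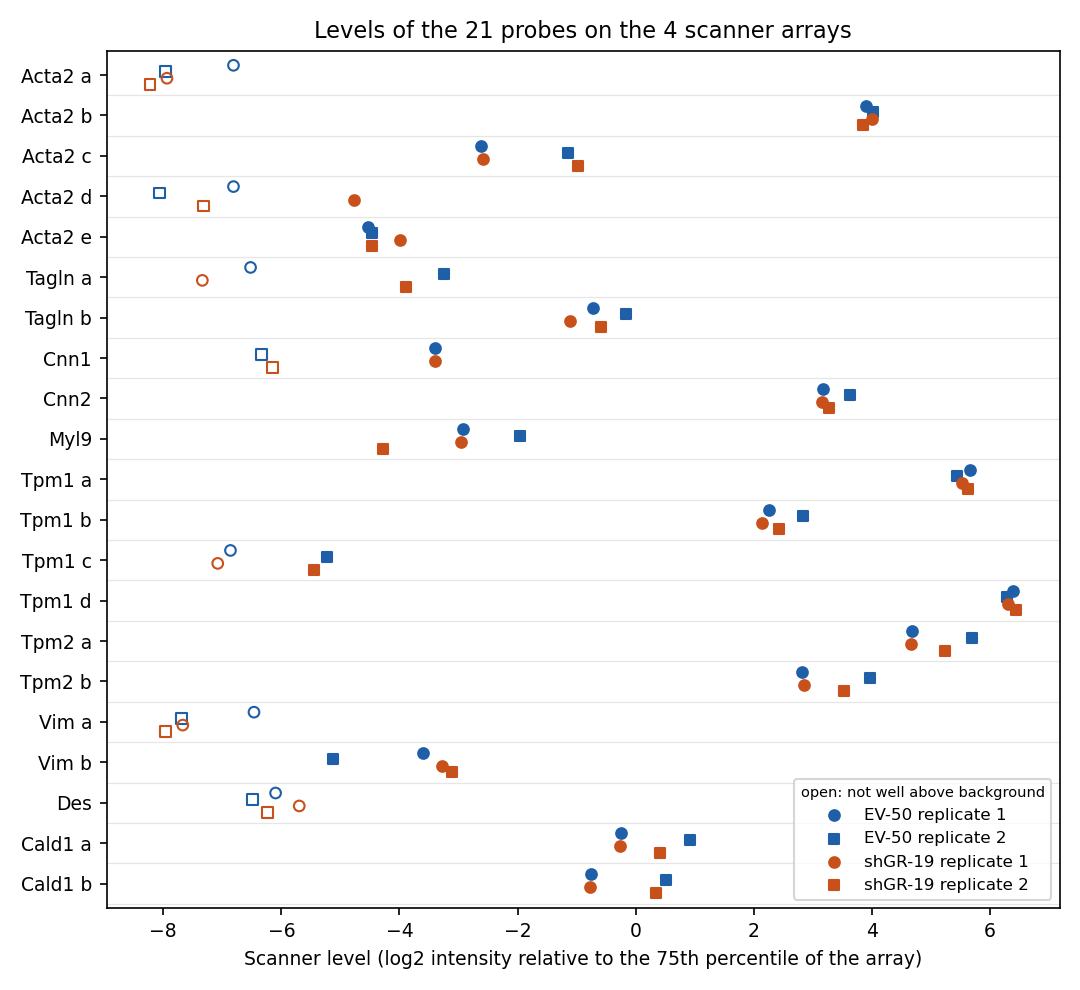
Scanner levels (log2 intensity scaled to each array's 75th percentile) of all 21 probes on the 4 arrays, blue for EV-50 and orange for shGR-19, circles for replicate 1 and squares for replicate 2. Open symbols were not well above background. Levels can be read along a row only, since probes differ in brightness. For Cnn1, Tagln a, Acta2 c and Cald1 the circles and the squares form separate pairs whatever the line, as for Cnn1 with -3.40 and -3.40 against -6.34 and -6.15.

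The actin gene of the set, Acta2, had 5 probes, 3 of them kept, and these did not share a direction. In the table, probe b (mm9 chr19:34322995-34326249, across an intron) differed by -0.17 (SE 0.064, limma adjusted p = 0.123), probe c (chr19:34316060-34316119) by 0.22 (SE 0.055, adjusted p = 0.0527) and probe e (chr19:34315196-34315254) by 0.40 (SE 0.43, adjusted p = 0.518). None was called, and the sign of e turned, to -0.11, when the column of shGR-19 replicate 2 was left out. On the scanner arrays probe b gave 3.90 and 4.02 for EV-50 replicates 1 and 2 and 4.01 and 3.85 for shGR-19 replicates 1 and 2, so that the lines overlapped. Probe e gave -4.53, -4.46, -4.00 and -4.47 in the same order, again overlapping. Probes a and d were above background on 0 and 1 array and had no test. Their table differences, -0.26 each, are of probes hardly detected and give no direction. Probe b is shown because actins are nearly identical in their coding sequence, and a probe there can bind RNA of other isoforms, which was not measured.
Acta2 probe b: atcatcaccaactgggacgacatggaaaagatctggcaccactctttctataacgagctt

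Probe c of Acta2 was printed as 10 spots on each array, which gives the technical error within an array. All 10 spots were above background on every array. Over the 10 spots the mean was -2.63 ± 0.32 (SD) in EV-50 and -2.58 ± 0.15 in shGR-19 for replicate 1, against -1.14 ± 0.055 in EV-50 and -0.98 ± 0.062 in shGR-19 for replicate 2. The spots of the replicate 1 arrays lay wholly below those of the replicate 2 arrays, in either line, and the difference of 1.48 in EV-50 and 1.60 in shGR-19 was several times the spread of spots. Between lines the means differed by 0.04 and 0.16. In the table this separation by replicate number was not seen, with values of -0.09 and -0.16 in EV-50 and 0.11 and 0.09 in shGR-19. Des, whose probe (mm9 chr1:75363404-75363629, across an intron) was also printed 10 times, was near background. Of its 10 spots 1, 1, 3 and 2 were above background on the arrays EV-50 replicates 1 and 2 and shGR-19 replicates 1 and 2, and its table difference was -0.19, without a test.

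**Figure D3:**
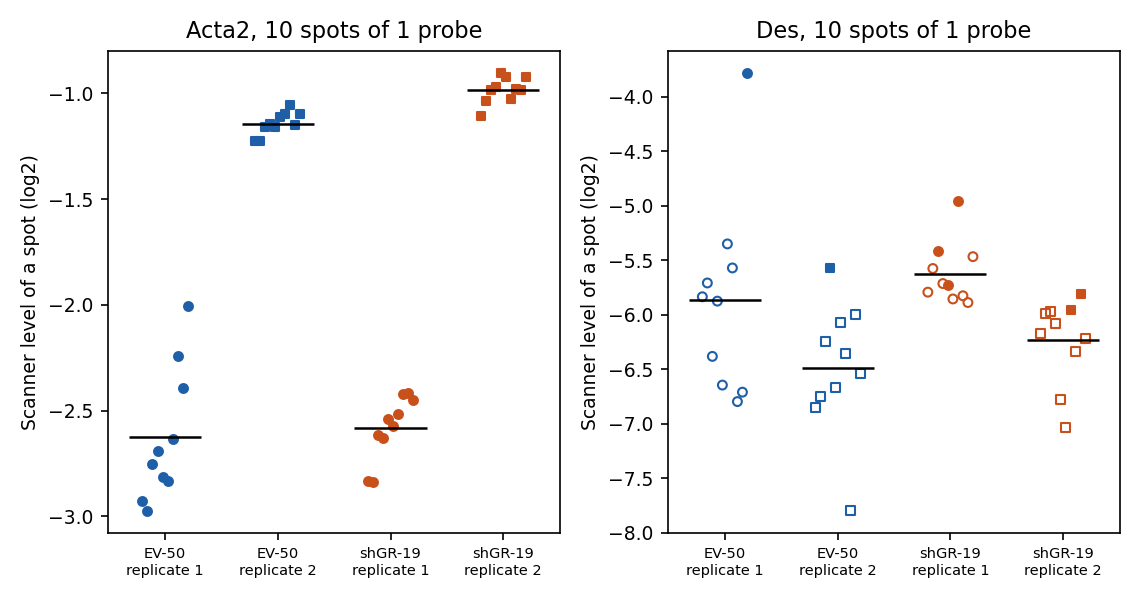
Scanner level (log2) of each of the 10 spots of 1 probe on the 4 arrays, for Acta2 (probe c) on the left and Des on the right, with black lines at the mean over the spots drawn, outlier spots included. Open symbols were not well above background. For Acta2 the spots of the arrays labelled replicate 2 cluster at -1.14 and -0.98 and those of replicate 1 spread around -2.63 and -2.58, and for Des most spots are open.

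The calponins were on opposite sides of detection. Cnn2, the form found in many tissues, was measured on every array (mm9 chr10:79457785-79457844). Its table values were 0.18 and 0.17 in EV-50 and -0.17 and -0.19 in shGR-19, a difference of -0.36 with an SE of 0.046, and its adjusted p of 0.0147 by limma missed the threshold. The scanner levels were 3.17 and 3.63 for EV-50 replicates 1 and 2 and 3.16 and 3.27 for shGR-19 replicates 1 and 2, so that the values of shGR-19 overlapped those of EV-50. Cnn1, the smooth muscle form, lay above background on the arrays labelled replicate 1 of both lines, each at -3.40, and on neither labelled replicate 2, at -6.34 for EV-50 and -6.15 for shGR-19 (mm9 chr9:21913058-21913117). It was therefore not kept, and in the table its EV-50 columns were themselves far apart, at -0.05 and -1.88, against 0.05 and 0.33 in shGR-19. The table difference of 1.16 was smaller than the SD of 1.30 between the EV-50 columns.

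Transgelin showed the reverse pattern over the arrays. Probe a of Tagln (mm9 chr9:45738916-45738975) was above background on the arrays labelled replicate 2 alone, at -3.25 in EV-50 and -3.89 in shGR-19, and at -6.52 and -7.34 on those labelled replicate 1. Probe b (chr9:45738097-45738156), nearer the 3′ end, was above background on every array, with -0.73 and -0.17 in EV-50 and -1.12 and -0.59 in shGR-19. Probe b was lower in shGR-19 within each replicate number, by 0.39 and 0.43. Probe a was lower by 0.64 between the arrays labelled replicate 2. Its difference of 0.82 between those labelled replicate 1 lay between values below background and gives no direction. The table difference of b was -0.28 (SE 0.14, limma adjusted p = 0.207), and that of a was -0.50 without a test, so that no change of Tagln was called.

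The tropomyosins gave 6 probes, of which 5 were kept and none called. For Tpm1, probe b (mm9 chr9:66875959-66877514, across an intron) differed in the table by -0.40 (SE 0.049, limma adjusted p = 0.0130), the nearest of the uncalled probes to the threshold, whereas probes a (chr9:66880625-66881695) and d (chr9:66870869-66870928) differed by -0.05 and 0.05 with adjusted p of 0.501 and 0.471. Probes of the same gene thus did not share a size or sign of difference, and Tpm1 is known to be spliced into many isoforms. On the scanner arrays b gave 2.25 and 2.84 for EV-50 replicates 1 and 2 and 2.14 and 2.43 for shGR-19 replicates 1 and 2. Probe a spanned 5.44 to 5.67 and probe d 6.28 to 6.45 over the 4 arrays, with the lines overlapping in all 3 probes. Probe c (chr9:66871867-66871926) was above background on both arrays labelled replicate 2 and neither labelled replicate 1, with a table difference of -0.01 without a test.

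Tpm2 was lower in shGR-19 by nearly the same amount in its probes a (mm9 chr4:43532150-43532300, across an intron) and b (chr4:43531276-43531335), by 0.30 (SE 0.049) and 0.33 (SE 0.053), with adjusted p of 0.0231 and 0.0226 by limma, short of the threshold. The scanner levels of a were 4.68 and 5.69 for EV-50 replicates 1 and 2 and 4.67 and 5.24 for shGR-19 replicates 1 and 2, those of b 2.82 and 3.97 against 2.86 and 3.53. In either probe the arrays labelled replicate 1 were nearly equal, and that labelled EV-50 replicate 2 was the highest. Probe a of Tpm1 and probe a of Tpm2 are shown because tropomyosin genes resemble each other in coding sequence. Over the 33 bases in capitals, 27 (81.8%) were identical between them, and whether either probe binds RNA of the other gene was not measured.
Tpm1 probe a: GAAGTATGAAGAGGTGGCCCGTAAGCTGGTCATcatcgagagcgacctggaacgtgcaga
Tpm2 probe a: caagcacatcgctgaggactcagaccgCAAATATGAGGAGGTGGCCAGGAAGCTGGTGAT

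Caldesmon differed little between the lines. Its probes a (mm9 chr6:34703475-34703534) and b (chr6:34723839-34723898) differed in the table by -0.12 (SE 0.049, limma adjusted p = 0.141) and -0.17 (SE 0.048, adjusted p = 0.0681). On the scanner arrays a gave -0.25 and 0.92 for EV-50 replicates 1 and 2 and -0.27 and 0.41 for shGR-19 replicates 1 and 2, and b gave -0.75 and 0.52 against -0.78 and 0.34. Replicate numbers differed here by more than the lines did. Such a shift, in the same direction in both lines and larger in each than the difference between the lines, was seen in 7 of the 14 kept probes, and in 49.5% of all kept probes. The arrays labelled replicate 2 exceeded those labelled replicate 1 by a median of 0.57 over the 14 probes in EV-50 and 0.23 in shGR-19, against -0.03 and -0.06 over all kept probes.

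Related genes outside the set were described from a list of 41 genes, of which 40 were found on the array and 38 had a kept probe. Of the 38, 4 were called in the table, where 11.6% of all kept probes were, 2 higher and 2 lower, with a median of 0.01, and in the scanner files 0 were called by limma and 0 had an unadjusted p below 0.05. The 2 called at over 2-fold were Acta1, skeletal alpha-actin, which was lower in shGR-19 by 1.76 (SE 0.080, limma adjusted p = 0.00352), and Mkl2, a myocardin-related cofactor of SRF, which was higher by 1.14 (SE 0.076, adjusted p = 0.00524). On the scanner arrays Acta1 gave -4.24 and 0.37 for EV-50 replicates 1 and 2 and -3.81 and -1.46 for shGR-19 replicates 1 and 2, overlapping between lines. Mkl2 gave -3.12 and -2.02 against -2.93 and -0.98, which overlapped too. These values are of the brightest kept probe of a gene. Another kept probe of Mkl2 differed in the table by 0.46 (SE 0.29, limma adjusted p = 0.293) and was not called. A probe of Mkl2 that was not kept differed by 0.79, without a test. The other called genes, named here after their values were seen, were Cnn3, the acidic calponin, higher by 0.55, and Rock1, a kinase that acts on myosin light chain phosphatase, lower by 0.59. The less bright kept probes of Rock1 differed by -0.61 and -0.57 and missed the threshold (limma, adjusted p of 0.0105 and 0.0169).

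By role, 2 of 17 muscle isoforms and their binding proteins were called in the table. So were 1 of 5 genes of SRF and its cofactors, 1 of 13 genes of nonmuscle actomyosin and 0 of 3 intermediate filament genes. Of all kept probes 11.6% were called in the table, and with so few genes a role these counts do not set the roles apart. Among the uncalled muscle genes, Actg2 (smooth muscle gamma-actin) differed by 0.03, Actc1 (cardiac actin) by 0.07, Myh11 (smooth muscle myosin heavy chain) by 0.39, Mylk (the kinase of the light chain) by 0.41, Lmod1 (leiomodin) by 0.40 with an SE of 1.22, and Smtn (smoothelin) by -0.44. A less bright kept probe of Mylk differed by -0.07 (SE 0.064). SRF itself differed by 0.02 (SE 0.052). The sizes varied within each role. The 5 genes of SRF and its cofactors had a median of 0.32 in the table and 0.09 in the scanner files, where 3 were above 0 and 2 below, and Myocd, at 0.32 in the table, had an SE of 0.33.

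**Figure D4:**
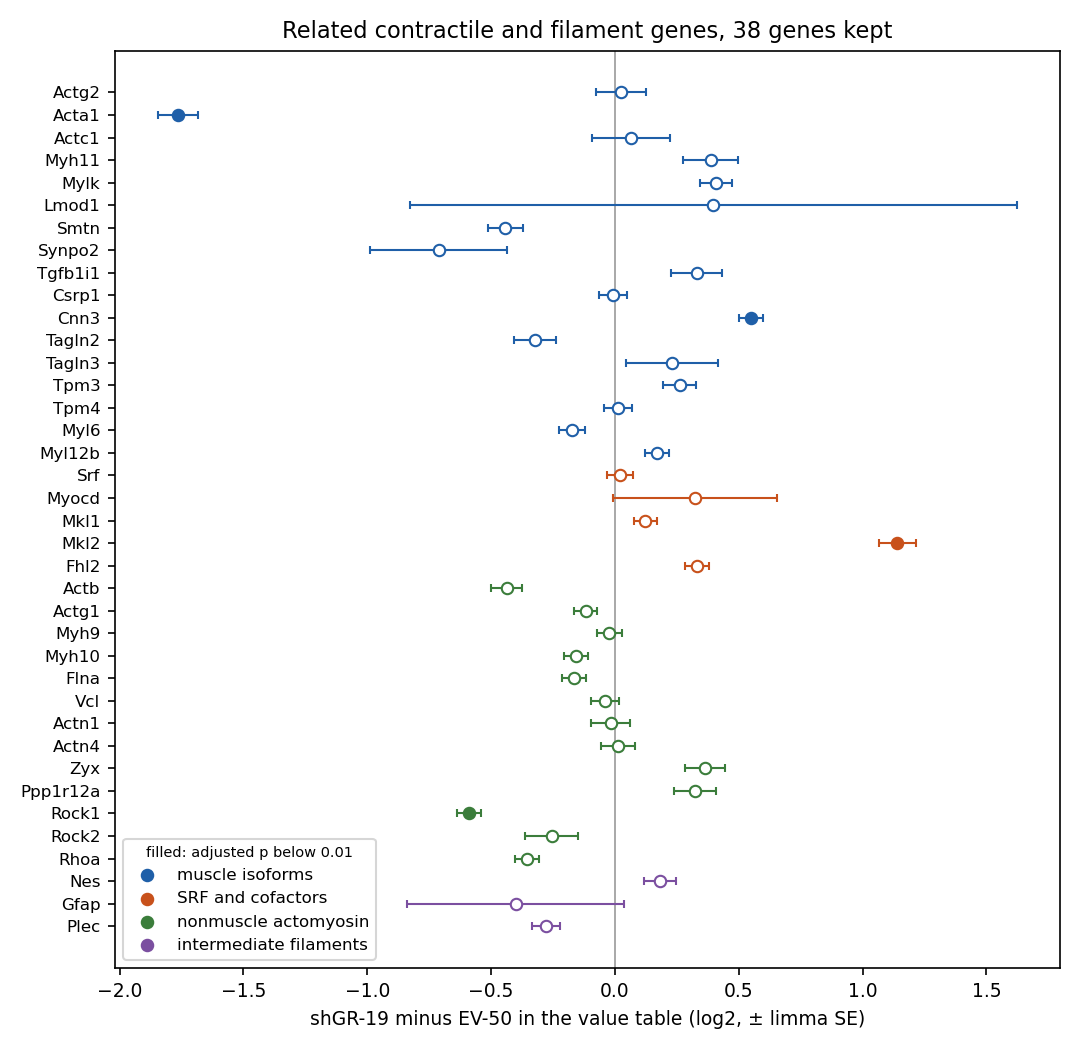
Value-table difference between the lines (log2, shGR-19 minus EV-50, with the limma SE) for the brightest kept probe of 38 related genes, coloured by role. Filled points had an adjusted p below 0.01, which held for Acta1, Cnn3, Mkl2 and Rock1, with Acta1 the lowest at -1.76 and Mkl2 the highest at 1.14.

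Genes outside the set were also ranked by how closely their 4 scanner values and 4 table values, each source centred on its own mean, followed those of Myl9 and Vim. Nearest to Myl9 over these 8 values were Cmtm8 (root mean square distance 0.095 log2), Fhod3 (0.11) and the probe of Tmsb15b1-Tmsb15b2 (0.14), with table differences of -2.55, -2.65 and -2.54. Nearest to Vim were B3gnt7 (0.15), Dclk2 (0.15) and Fam65c (0.16), with differences of 1.70, 1.98 and 1.85. These 8 values come from the same 4 samples, so the distances describe likeness on these arrays.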

How the data were processed

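The authors deposited scanner output for each of the 4 arrays (Agilent Feature Extraction 10.5.1.1, per the labels), with the background-subtracted intensity of each spot, and a table of log2 values, which GeneSpring produced with each probe centred on its median. Outlier spots were left out (74 to 139 an array), spots of a probe were averaged, and the log2 of each array's 75th percentile was subtracted from log2 intensity. From 21959 to 25777 probes an array were well above background, and precision is limited by having 2 arrays a line. A probe with repeated spots counted as above background where at least 50% of its spots did. Both sources were fitted with lmFit and eBayes (limma 3.58.1, statmod 1.5.0, R 4.3.3) and Benjamini-Hochberg adjustment over all 24443 kept probes. An adjusted p below 0.01 was a call. The methods of the study give over 2-fold and a p below 0.01, without saying whether that p was adjusted. The smallest exact permutation p for 2 against 2 arrays is 0.333, so none was used. The genes and lists were chosen with earlier results of these data known. By rule, all probes of the 10 genes are named, and the 3 genes most like each of Myl9 and Vim. Of the related genes, those called at over 2-fold and 6 uncalled ones in list order are named. Cnn3, Rock1, Myocd and the gene of SRF were named outside this rule. Summed levels are log2 of the sum over a list's brightest probes. The alternatives were normexp (offset 50), quantile normalization, other percentiles, filters and thresholds, an intensity trend with a robust prior, a replicate block, each array left out, a plain equal-variance test and genes in place of probes. The fit was tested on simulated data. Figures were drawn with matplotlib 3.10.9.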

Additional observations from a re-analysis of the deposited data

How the results depend on the processing

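The number of arrays, 2 a line, limits every call. In the scanner files 0 of the 14 probes and 0 of the 38 related genes were called under every setting run on those files, whereas the value table gave 2 and 4. With 1 array left out, the scanner median over the 14 probes ran from -0.60 to 0.16. Single scanner differences that changed sign then ran from -0.12 to 0.045 (Acta2 b), -0.70 to 0.90 (Acta2 c), -0.42 to 0.044 (Cnn2), -0.092 to 0.13, -0.55 to 0.031 and -0.022 to 0.11 (Tpm1 a, b and d), -0.73 to 0.27 and -0.77 to 0.38 (Tpm2 a and b), and -0.84 to 0.32 and -0.74 to 0.53 (Cald1 a and b). Tpm1 a, at 0.021 in the scanner files, was -0.054 in the table and 0.051 in the table after quantile normalization.

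In the value table, the 2 calls among the 14 probes became 1 after quantile normalization, 0 with all probes tested, 4 with only probes above background on all 4 arrays, 6 with an intensity trend and robust prior, 6 at an adjusted p below 0.05, 6 at an unadjusted p below 0.01, 4 and 0 by the plain equal-variance test without and with adjustment, and 1 with genes in place of probes. The 4 calls among related genes became 0, 7, 15, 11 and 9 with all probes, the stricter filter, the trend, the looser adjusted threshold and the unadjusted one, 2 at over 2-fold and 0 by the adjusted plain test. With 1 column left out, both counts were 0 each time, as was that over all probes, where 9066 to 9824 probes had an unadjusted p below 0.05 by limma. The median over the 14 probes was -0.066 after quantile normalization, -0.11 in the replicate 2 columns alone, an alternative chosen after seeing the data, and -0.19 to -0.15 with 1 column left out. Acta2 e ran from -0.11 to 0.91. Over all kept probes the 2827 calls became 4874 with the stricter filter, 8031 with the trend, 8921 at an adjusted p below 0.05, 4572 by the plain test unadjusted and 23 adjusted, and 43 with all probes. With the replicate block, 0 of the 14 probes, 0 of the related genes and 0 of all probes were called in the table (12085 at an unadjusted p below 0.05 by limma), and 0 in the scanner files. Arrays of the same number shared their deviations (correlation 0.65 in the scanner files, 0.11 in the table), but with 2 pairs the numbers were not taken to pair the samples. The cause of these changes was not tested.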
